A study of Mus musculus with 4 samples.

Results

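The matrix metalloproteinases (MMP), the ADAMTS proteases and their tissue inhibitors (TIMP) were followed between young adult and aged mouse septal nasal mucosa. The genes were taken as every non-control array probe whose accession carries a symbol beginning with Mmp and a digit or with Adamts, or one of the symbols Timp1 to Timp4. This gave 50 genes read by 75 probes, among 45604 genes tested: 22 MMP genes, 19 ADAMTS genes, 5 ADAMTS-like genes and 4 TIMP genes. Mmp27 was not matched to a probe.

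Both groups were untreated C57BL/6J mice, young adults 8 weeks old and aged mice 16 months old, and the study's methods give all of them as male. Each age had 2 one-color arrays, each with RNA pooled from 5 mice, and the methods count fewer mice per age for gene analyses than separate pools would require. P-values therefore measure the spread between pools that may share animals. A label field naming silica aspiration and lung cells fits neither the titles nor the study and was set aside. Young adult array 1 and aged array 1 shared a slide and a scan, and the other arrays each had their own. Between 63.1% and 76.8% of the spots were well above background per array, and no spot was saturated. Xist, the noncoding RNA that silences an X chromosome in females, was well above background on all 4 arrays (612 to 645), while only 1 of 8 Y-linked genes was above background on any array. This goes against the stated sex on every array, in both ages alike. All 6 markers of mature olfactory receptor neurons (ORNs) were well above background on some or all arrays. So were all 9 fibroblast markers, all 8 osteoclast markers and 8 of 9 bone markers, so the RNA was not of epithelium alone.

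MMPs are zinc-dependent proteases that cut collagens, elastin, laminins and many signalling proteins outside the cell. Most are made as inactive proforms, and a propeptide must be removed before they cut. ADAMTS proteases carry thrombospondin repeats that hold them in the matrix, where they cut proteoglycans, process procollagens and fibrillins, or trim von Willebrand factor, and the ADAMTS-like proteins share the repeats without the protease domain. TIMPs bind the active sites of these enzymes, and Timp3, which stays attached to the matrix, also inhibits ADAMTS proteases. Matrix turnover of this kind accompanies bone remodelling, vessel growth and the traffic of leukocytes through the lamina propria.

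Several MMP genes lie side by side on mouse chromosome 9, and their promoters are shown here because the collagenase gene Mmp13 and the macrophage elastase gene Mmp12, both lower in the aged arrays, belong to that group. The membrane-type gene Mmp14 and the inhibitor gene Timp1 stand beside them for comparison. Each line gives the 250 bases before the start of transcription in RefSeq, assembly GRCm38.p6, plus strand, 5′ to 3′. Capitals mark matches on either strand to TGANTCA, the element read by AP-1, to TGTGGT, the core read by RUNX factors, and to TATAAA.
Mmp13, chr9:7272264-7272513: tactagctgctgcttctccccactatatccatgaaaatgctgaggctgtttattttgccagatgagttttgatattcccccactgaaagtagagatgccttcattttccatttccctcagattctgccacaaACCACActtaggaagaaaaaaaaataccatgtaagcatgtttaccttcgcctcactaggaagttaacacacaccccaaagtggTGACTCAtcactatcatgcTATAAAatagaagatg
Mmp12, second annotated start, chr9:7347124-7347373: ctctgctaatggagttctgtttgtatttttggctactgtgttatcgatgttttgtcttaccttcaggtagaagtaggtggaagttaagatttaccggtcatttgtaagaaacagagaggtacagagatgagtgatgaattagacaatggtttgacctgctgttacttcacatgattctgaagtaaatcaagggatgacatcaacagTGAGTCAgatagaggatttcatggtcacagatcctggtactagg
Mmp14, chr14:54431348-54431597: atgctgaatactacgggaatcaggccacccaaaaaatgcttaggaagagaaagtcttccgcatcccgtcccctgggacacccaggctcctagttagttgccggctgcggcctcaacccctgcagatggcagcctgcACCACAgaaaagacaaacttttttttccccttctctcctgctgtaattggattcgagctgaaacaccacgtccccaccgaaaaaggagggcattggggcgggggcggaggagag
Timp1, chrX:20869916-20870165: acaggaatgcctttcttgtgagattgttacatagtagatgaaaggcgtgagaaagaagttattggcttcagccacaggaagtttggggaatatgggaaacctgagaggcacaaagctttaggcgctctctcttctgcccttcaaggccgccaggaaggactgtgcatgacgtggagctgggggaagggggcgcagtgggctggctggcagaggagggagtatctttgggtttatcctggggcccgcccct

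The Mmp13 promoter held all 3 motifs without overlap, with TGANTCA beginning at position -35, TATAAA at -16 and the RUNX core, on the minus strand, at -118, counted from the RefSeq start. The second Mmp12 promoter held TGANTCA at -44 and the first annotated one, chr9:7344147-7344396, held none of the motifs. Mmp14 held the RUNX core at -114 on the minus strand, and the Timp1 window held none of these letters. Promoter entries were found for 35 of the 50 genes, 38 promoters in all. TGANTCA occurred in 8 of these 38 promoters, 21.1%, and in 6.75% of all 32851 mouse promoters of the same length. All 8 belonged to MMP genes of chromosome 9: Mmp13, Mmp12, Mmp3, Mmp10, Mmp1a, Mmp1b, Mmp20 and Mmp7. Mmp8, the remaining gene among the 9 MMP genes of that chromosome, had no match. TATAAA occurred in 10 of the 38 promoters, 26.3% against 12.4% of all promoters, and 7 of the chromosome 9 MMP genes carried it together with TGANTCA. The RUNX core occurred in 5, 13.2% against 14.0%. Of these 9 genes, 5 were not above background on any of the arrays. A match in letters is a description of the sequence and no evidence of binding.

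Expression differences were computed with limma, and a gene was called at P below 0.05 with a Benjamini-Hochberg false discovery rate (FDR) below 0.25 over all genes, as the study's methods set it. A level below is a normalized intensity, and a fold change is a log2 difference, aged minus young adult. With age, 8 of the 50 genes fell, 16.0% against a background of 2.33% of all genes, and 0 rose, against 1.65%. The genes that fell were Mmp13, Mmp9, Mmp2, Mmp12, Mmp14, Adamts17, Adamts9 and Adamtsl4, by 1.45-fold to 2.29-fold. None of the 4 TIMP genes was called, although 3 of them passed as lower without dim probes and with an intensity trend in eBayes. Those settings called 3706 of 29495 and 3518 of 45604 genes lower over the whole array. The filter on dim probes kept a probe well above background on both arrays of either age. A probe could thus stay through its brighter age alone. A difference in calls between proteases and inhibitors was not tested. At P below 0.05 alone, without the FDR, 14 genes were lower (28.0%, background 7.08%) and 3 were higher (6.0%, background 6.05%). Lower means in aged mice were found for 37 genes (74.0%, background 48.5%). The ages did not overlap for 24 genes that were lower in aged mice (48.0%, background 21.8%) and for 5 that were higher (10.0%, background 24.2%). With the study's further limits, a mean level of at least 100 and a 1.5-fold change, 5 genes remained, 10.0% against 1.15% of all genes lower: Mmp13, Mmp9, Mmp2, Mmp14 and Adamtsl4. No gene on the array passed an FDR of 0.05. Fitted with the replicate number as a block, which for number 1 is also a shared slide and scan, 0 of the 50 genes were called (limma, smallest FDR of any gene 0.433) and 13 were lower at P below 0.05 alone. Leaving out 1 array also ended every call on the array: at P below 0.05 alone, 13 of the 50 genes were lower without young adult array 1, 11 without young adult array 2, 9 without aged array 1 and 12 without aged array 2.

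**Figure D1:**
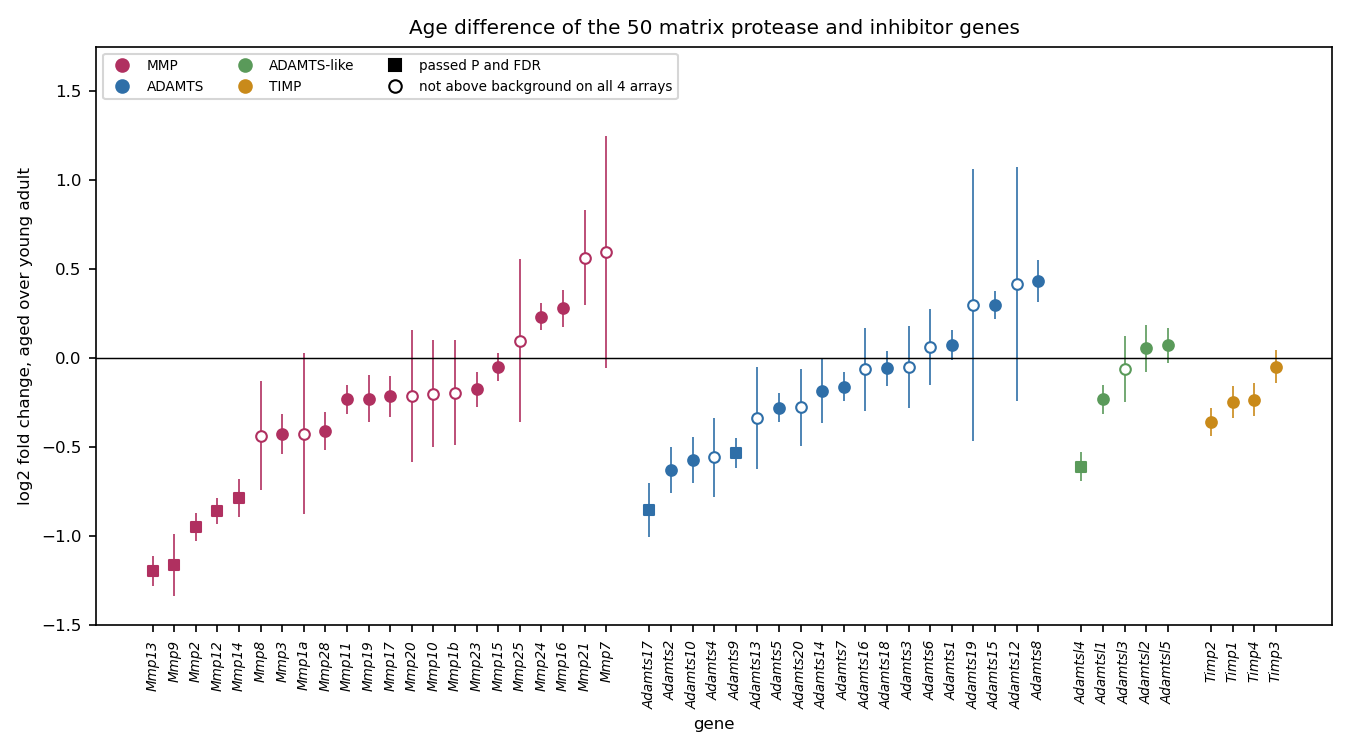
Log2 fold change of each of the 50 genes, aged over young adult, with its standard error from limma (2 arrays per age), ordered within the MMP, ADAMTS, ADAMTS-like and TIMP classes. Squares passed P below 0.05 and FDR below 0.25, open symbols were not well above background on all 4 arrays. The 8 squares all lie below 0, down to -1.19 for Mmp13, and the 4 TIMP genes lie between -0.36 and -0.05.

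Of the 50 genes, 33 were well above background on all 4 arrays, 5 on some and 12 on none. A gene counted as above background on an array if any of its probes was. The 8 called genes are among the 33. The 12 genes never above background were Mmp1a, Mmp1b, Mmp7, Mmp10, Mmp20, Mmp21, Mmp25, Adamts3, Adamts6, Adamts12, Adamts13 and Adamts19, and their fold changes, from -0.42 to 0.60, have wide errors. Adamts4, Adamts16, Adamts20, Adamtsl3 and Mmp8 were above background on some arrays only.

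Mmp13, the main interstitial collagenase of mice and a product of hypertrophic chondrocytes and osteoblasts, fell with age. Its fold change was close to that of Mmp9 within their errors, and the order of the largest falls changed with the processing. Its level was 2307 and 2222 in young adults and 956 and 1024 in aged mice. The aged arrays thus lay well apart from the young adult arrays, with a fold change of -1.19 ± 0.09 (SE; limma, FDR = 0.178), and the difference was -1.27 on the shared slide and -1.12 between the other arrays. Of the remaining collagenases, Mmp8, stored by neutrophils, had levels of 67.8, 114, 60.4 and 69.8 in the order young adult 1 and 2, aged 1 and 2, and these overlapped.

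Both gelatinases, which cut denatured collagen and basement membrane collagen, fell with age. Mmp2, made by fibroblasts and other stromal cells, read 5067 and 5212 in young adults and 2596 and 2737 in aged mice. The ages did not overlap, and the fold change was -0.95 ± 0.08 (SE; limma, FDR = 0.178), with -0.97 on the shared slide and -0.93 between the other arrays. Mmp9, made by osteoclasts and carried by neutrophils, read 444 and 451 in young adults and 230 and 174 in aged mice. Its fold change was -1.16 ± 0.17 (SE; limma, FDR = 0.211), and the aged arrays, though both low, differed more from each other than the young adult arrays did. The difference was -0.95 on the shared slide and -1.38 between the other arrays.

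Mmp12, the elastase of macrophages, had low levels of 104 and 107 in young adults against 58.3 and 57.8 in aged mice. In this mean of 3 probes the arrays of each age were close to each other and apart from the other age. The fold change was -0.86 ± 0.08 (SE; limma, FDR = 0.178), while the single probes varied more, with SEs of 0.14 to 0.32. Its difference was -0.83 on the shared slide and -0.88 between the other arrays.

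Mmp14, the membrane-anchored protease that activates the Mmp2 proform at the cell surface, read 629 and 604 in young adults and 334 and 383 in aged mice. The fold change was -0.78 ± 0.11 (SE; limma, FDR = 0.208), with -0.91 on the shared slide and -0.66 between the other arrays. It was the single member called among the 6 membrane-type MMP genes, whose median fold change was 0.03. Mmp15, another transmembrane member, read 1199 and 1248 against 1193 and 1172, a fold change of -0.05 (FDR = 0.821). Mmp16 and Mmp24, membrane-type genes with neural expression, had higher levels on both aged arrays (fold changes 0.28 and 0.23, FDR = 0.413 and 0.372) and did not pass. The test of a difference between Mmp14 and these genes was not run.

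The stromelysin genes were not called. Mmp3, which cuts proteoglycans and activates other proforms, read 123 and 132 in young adults and 88.7 and 101 in aged mice, lower without overlap, at -0.42 (FDR = 0.311). Mmp11, a stromal gene whose proform is cut inside the cell by furin, read 616 and 575 against 507 and 508, a difference of -0.23 (FDR = 0.402). In the MMP class as a whole, 17 of 22 genes were lower and 5 higher on average, with a median of -0.22. Of all genes, 48.5% were lower on average and the median was 0.009.

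**Figure D2:**
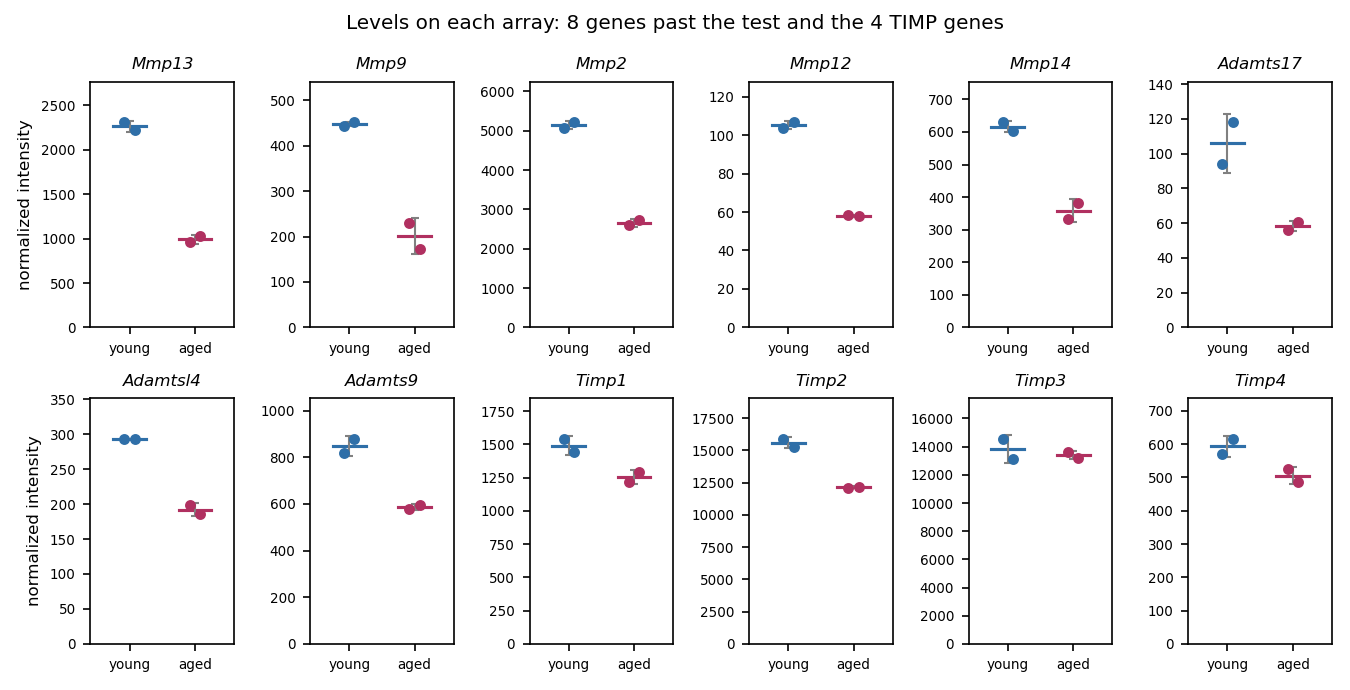
Normalized intensity of the 8 called genes and the 4 TIMP genes on each array, 2 young adult and 2 aged arrays per panel, with the mean (line) and the SD (bar) and an axis that starts at 0. The ages do not overlap for the 8 called genes or for Timp1, Timp2 and Timp4, while the Timp3 arrays overlap.

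Among the 19 ADAMTS genes, 2 fell, 13 were lower and 6 higher on average, and the median was -0.16. Of all genes, 2.33% fell and 48.5% were lower on average. Adamts9, a proteoglycan-cutting enzyme of vessels and connective tissue, read 817 and 878 in young adults and 576 and 596 in aged mice. The ages were apart, with a fold change of -0.53 ± 0.09 (SE; limma, FDR = 0.222), -0.50 on the shared slide and -0.56 between the other arrays. Adamts17, linked to fibrillin microfibrils and to a short-stature syndrome with eye defects, read 93.9 and 118 against 56.2 and 60.6. It was low on both aged arrays, with a fold change of -0.85 ± 0.15 (SE; limma, FDR = 0.241), -0.74 on the shared slide and -0.96 between the other arrays. Of its 3 probes, 2 were not well above background on either aged array, and the fold change ran from -1.26 with the processed intensity to -0.54 with an offset of 50.

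Adamts2, which removes the N-propeptide of procollagens, lay just outside the threshold at FDR = 0.263. Its levels were 432 and 491 in young adults and 278 and 320 in aged mice, a difference of -0.63 without overlap. Adamts10, a fibrillin-binding relative of Adamts17, was at FDR = 0.283 with a difference of -0.57. Just inside the threshold were Adamts17 and Adamts9.

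A smaller number of ADAMTS genes had higher values in aged mice. Adamts15, which cuts versican and aggrecan, read 846 and 888 in young adults and 1058 and 1075 in aged mice. The ages were apart and in the direction opposite to Adamts9, at 0.30 (FDR = 0.312, not called). Adamts8, a related enzyme, read 70.4 and 76.7 against 106 and 92.6, at 0.43 (FDR = 0.316), and was not called either. Adamts1, another versican-cutting enzyme, read 798 and 751 against 833 and 797, with a difference of 0.07 (FDR = 0.748) and overlapping arrays.

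Of the ADAMTS-like genes, Adamtsl4, a fibrillin-binding protein needed to hold the eye lens in place, fell with age. It read 292 and 293 in young adults and 198 and 186 in aged mice, a fold change of -0.61 ± 0.08 (SE; limma, FDR = 0.206), with -0.56 on the shared slide and -0.66 between the other arrays. These are means of 2 probes that moved in opposite directions between arrays of the same age. The brighter read 559 and 615 against 479 and 353 and did not pass (-0.51 ± 0.19, SE; limma, FDR = 0.404). The dimmer read 153 and 140 against 82.1 and 97.5 and passed (-0.71, FDR = 0.233). It was not well above background on aged array 1. Adamtsl1 read 221 and 214 against 191 and 179, at -0.23 (FDR = 0.405), and Adamtsl5 read 186 and 194 against 189 and 211, at 0.07 (FDR = 0.788), the latter with overlapping arrays. The 5 genes had a median of -0.06.

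None of the 4 inhibitors was called, and all 4 were lower on average (48.5% of all genes were), by 1.03-fold to 1.28-fold. Timp2, which inhibits Mmp2 and also docks its proform to Mmp14 for activation, read 15891 and 15288 in young adults and 12128 and 12206 in aged mice. The aged arrays were both lower, at -0.36 ± 0.08 (SE; limma, FDR = 0.270), with -0.39 on the shared slide and -0.32 between the other arrays, close to the threshold. Timp2 passed under 8 of the alternative settings.
Timp1, an inducible inhibitor that binds the Mmp9 proform, read 1541 and 1439 against 1216 and 1294, at -0.25 (FDR = 0.404). Timp4, the inhibitor with the most restricted tissue range, read 571 and 615 against 524 and 487, at -0.23 (FDR = 0.441). Both had lower aged arrays without overlap and missed the threshold here. Without dim probes both passed (FDR = 0.157 for Timp1 and 0.187 for Timp4), as they did with the intensity trend (FDR = 0.0943 and 0.214), and Timp1 also passed with the processed intensity quantile normalized (FDR = 0.241). Timp3, the matrix-bound inhibitor, read 14544 and 13147 against 13599 and 13181, at -0.05 ± 0.09 (SE; limma, FDR = 0.861), and its arrays overlapped. Levels of different genes come from different probes, so for a difference between genes only its change with age is read below, not its size.

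Proteases and inhibitors were then compared within each array. The mean log2 value of the 41 MMP and ADAMTS genes changed by -0.23 and that of the 4 TIMP genes by -0.22, so their difference moved by -0.006. Without dim probes it moved by -0.16, but that filter could keep a probe through its brighter age alone, so this value is no separate support. Relative to its young adult mean, that difference was -0.08 and 0.08 in young adults and 0.01 and -0.03 in aged mice, between the young adult values. With 2 arrays per age an exact two-sided permutation test cannot give a P below 0.333, and the sign of this small value turned under several settings. A shift between the class averages was therefore not detectable with all genes included at this array number, and 12 of the 41 proteases were never above background.

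Single enzymes were also set against single inhibitors. These pairs were formed after the values were seen, and they are a description with no test. Mmp13 minus Timp1 lay 0.95 and 0.94 log2 units below its young adult mean on the aged arrays, a change of -0.95. Mmp9 minus Timp1 changed by -0.91, Mmp12 minus Timp1 by -0.61, Mmp2 minus Timp2 by -0.59 and Mmp14 minus Timp2 by -0.43. Adamts17 minus Timp3 changed by -0.80 and Adamts9 minus Timp3 by -0.48. In each of these pairs the aged values were lower without overlap. Mmp15 minus Timp2 changed by 0.31, in the other direction.

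**Figure D3:**
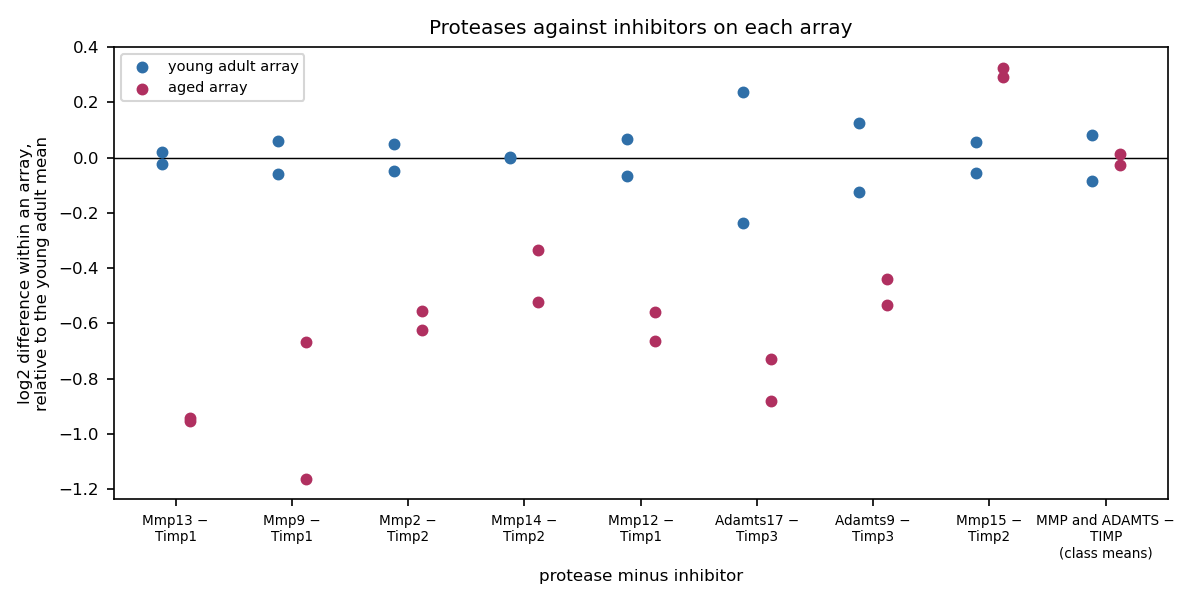
Log2 difference between a protease and an inhibitor on each array, relative to the mean of the 2 young adult arrays, for pairs chosen after the values were seen and for the class means of 41 MMP and ADAMTS genes and 4 TIMP genes. The aged arrays lie below the young adult arrays for 7 pairs and above them for Mmp15 minus Timp2, and the class means overlap (aged minus young adult -0.006).

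Single probes were fitted as one table of 56605 probes. Of the 75 probes of these genes, 12 were called lower (background 2.65%) and 0 higher. Of the 22 genes with more than 1 probe, 19 had all probes on one side of 0. Adamts16, Adamts18 and Adamts6 had probes on both sides, none of which passed. The probes of Mmp9 differed in size, with -1.46 (FDR = 0.165) for one and -0.86 (FDR = 0.446) for the other, whose aged arrays read 290 and 151. Mmp12 had -1.21 (FDR = 0.178) for its most intense probe and -0.85 and -0.52 for probes that were not well above background on either aged array. For Timp2 one probe passed at -0.44 (FDR = 0.246) and the other did not at -0.27 (FDR = 0.314). Adamts2 and Mmp28, an epithelial MMP, were not called as genes, and the brighter probe of each passed, at -0.66 (FDR = 0.180) for Adamts2 and -0.66 (FDR = 0.194) for Mmp28. The dimmer Adamts2 probe was at -0.59 (FDR = 0.427) and the dimmer Mmp28 probe, never above background, at -0.16 (FDR = 0.686).

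**Figure D4:**
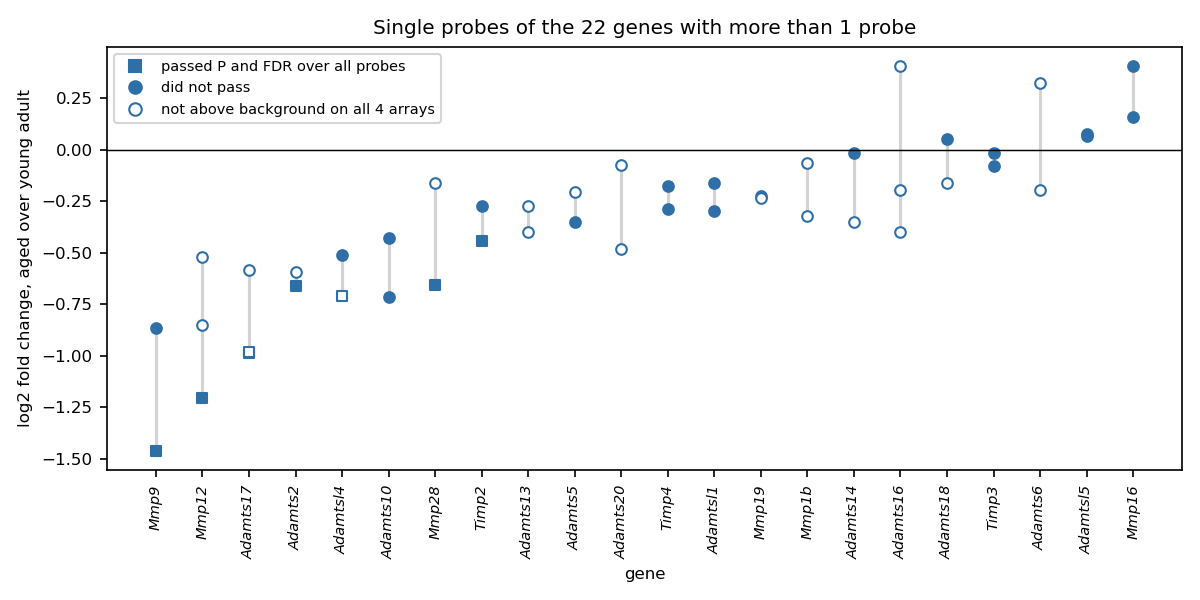
Log2 fold change, aged over young adult, of each probe of the 22 genes with more than 1 probe, ordered by the gene's fold change. Squares passed P below 0.05 and FDR below 0.25 over all probes, open symbols were not well above background on all 4 arrays, and the probes of Mmp9 span -1.46 to -0.86.

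The other genes of matrix proteolysis were described by lists, to be read beside 2.33% of all genes called lower and 1.65% called higher. None of the 8 genes of plasminogen activation, which generates plasmin to activate MMP proforms, was called in either direction (median -0.01), and none of the 4 proprotein convertases, including furin, was. At P below 0.05 alone, Plau, the urokinase gene, was lower at -0.87 (FDR = 0.297). Of 5 further metalloprotease inhibitors, A2m, a plasma protein that traps proteases, fell by 0.41 on the log2 scale (FDR = 0.242), and the membrane inhibitor Reck was at -0.32 (FDR = 0.297). Of 10 ADAM genes, membrane proteases related to ADAMTS, 7 were lower and 3 higher on average (median -0.05). Adam8, a leukocyte and osteoclast gene, fell by 0.41 on the log2 scale (FDR = 0.242). Adam28 read 1418 and 1427 in young adults and 1807 and 1789 in aged mice, at 0.34 (FDR = 0.273, not called).

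Of 5 tolloid genes and enhancers, which remove procollagen C-propeptides, Pcolce, an enhancer, fell by 0.58 on the log2 scale (FDR = 0.210). The other enhancer, Pcolce2, went the other way and was not called. It read 11078 and 10575 in young adults and 13561 and 14508 in aged mice, at 0.37 (FDR = 0.286). Of the 2 meprin genes Mep1b was called lower, though it was never well above background. Of 8 cathepsin genes, Ctsk, the collagen-cutting enzyme of osteoclasts, read 13257 and 12951 in young adults and 5023 and 5177 in aged mice, and fell by 1.36 on the log2 scale (FDR = 0.168).

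The genes of matrix substrates cut by these enzymes were mostly lower. Of 16 substrate genes, 11 fell and 0 rose, with a median of -0.88. Col1a1, the main collagen of bone and dermis, read 39301 and 37401 in young adults and 9407 and 10079 in aged mice (-1.98, FDR = 0.168). Col3a1, of soft connective tissue, fell by 1.97, and Col2a1, of cartilage, by 1.84 on the log2 scale (FDR = 0.168 each).
Among 15 inducers and receptors of MMP expression, 1 fell and 1 rose. Runx2, the osteoblast factor that drives Mmp13 in skeletal cells, read 98.5 and 95.5 against 71.5 and 65.9 (-0.50, FDR = 0.240). Il6, a cytokine of inflammation and senescent cells, read 32.9 and 39.3 against 113 and 116 (1.67, FDR = 0.178), and 1 of its young adult values was not well above background. The AP-1 genes Fos and Jun were at -0.41 (FDR = 0.309) and -0.19 (FDR = 0.550) and were not called.

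Some markers of cell types that make these proteases also fell, and none of these lists had a marker called higher. Of all genes, 2.33% were called lower and 1.65% higher. In such bulk RNA, fewer cells of a type and less RNA per cell cannot be told apart. Of 9 bone markers 5 fell (median -0.87), with summed levels of 31432 and 29193 in young adults and 15915 and 15188 in aged mice, and Sost, of osteocytes, was never above background. Most of these sums came from Bglap2, at 23518 and 21117 against 11671 and 11049. Sp7 and Mepe were at -0.18 (FDR = 0.814) and -0.05 (FDR = 0.923) and were not called. Of 8 osteoclast markers 4 fell (median -0.59), with sums of 53000 and 52486 against 18556 and 18509, led by Acp5, tartrate-resistant acid phosphatase, at -1.61 (FDR = 0.168). These sums were mostly Acp5 and Ctsk, the latter also counted among the cathepsins, while Calcr was at -0.002 (FDR = 0.996). Of 10 chondrocyte markers 2 fell (median -0.26), with sums of 4694 and 4731 against 3486 and 3298, and Matn1 and Matn3 were not above background. The 2 that fell, Col2a1 and Acan, were also counted among the substrate genes above. Col9a1, a cartilage collagen of this list, read 262 and 295 against 459 and 303, at 0.42 (FDR = 0.569, not called). These lists hold cell types known for Mmp13 and Mmp9, and their part in the fall of those genes was not tested.

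Of 9 fibroblast markers 5 fell (median -0.70), with sums of 255608 and 231036 against 132003 and 124365, mostly from Col1a1, Col1a2 and Dcn. Among those that fell, Col1a1, Col1a2 and Col3a1 were also counted as substrate genes. Dcn, a broad fibroblast gene, was at -0.19 (FDR = 0.628) and Pdgfra at -0.29 (FDR = 0.433), while Fap and Thy1 were at 0.19 (FDR = 0.432) and 0.03 (FDR = 0.927), and none of these was called. Of 9 neutrophil markers found 4 fell (median -0.50), and Ly6g was not found. The neutrophil sum, 131219 and 125586 against 130657 and 130682, was carried by Csf3r, at 0.10, while S100a8 and S100a9, calcium-binding proteins abundant in neutrophils, were at -1.07 and -1.08 (FDR = 0.178 each). Of 9 macrophage markers 3 fell (median -0.29), led by Cd68 at -0.78 (FDR = 0.201), with sums of 15163 and 15901 against 13237 and 13269. Their part in the falls of Mmp2, Mmp14, Mmp9 and Mmp12 was likewise not tested.

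Endothelial markers had 2 of 5 called lower and all 5 lower on average (median -0.49), with sums of 4761 and 4794 against 3054 and 3252. Smooth muscle and pericyte markers had 2 of 5 called lower and 4 lower on average (median -0.22). Ensheathing glia had 2 of 5 markers called lower and all 5 lower on average (median -0.49). Basal cells had 1 of 4 called lower and 3 lower on average (median -0.40). Of the 6 mature ORN markers and the 3 sustentacular markers none was called, and their medians were 0.20 and 0.13.

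**Figure D5:**
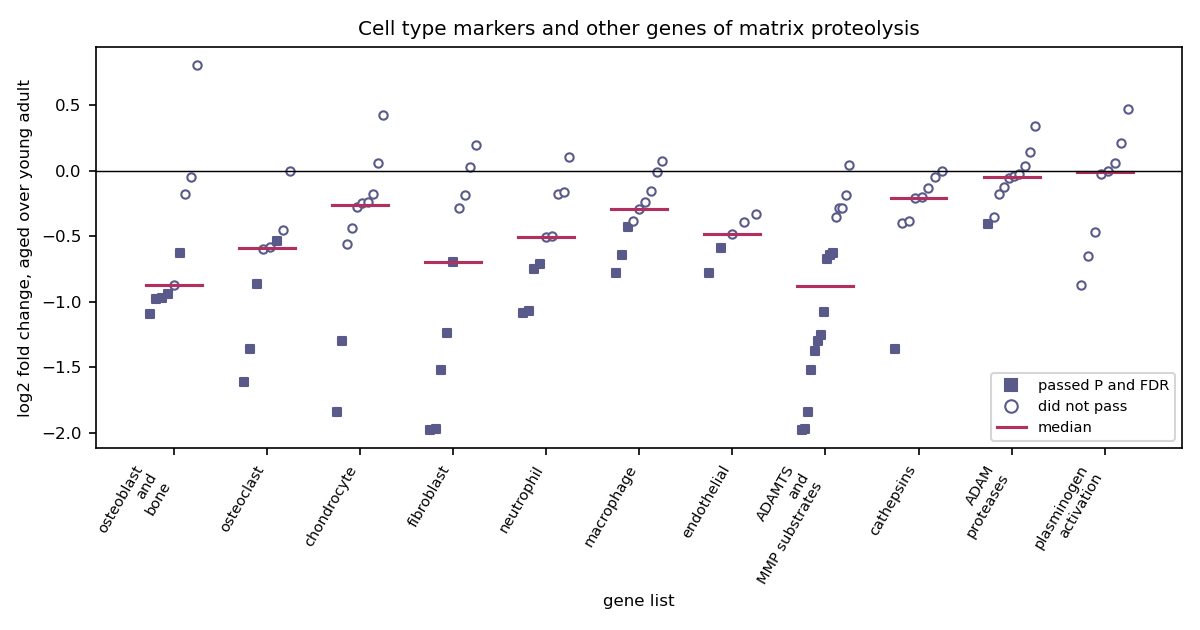
Log2 fold change, aged over young adult, of each gene of 7 cell type marker lists and 4 lists of matrix proteolysis, with the list's median as a line. Filled squares passed P below 0.05 and FDR below 0.25. The substrate list has the lowest median (-0.88), bone markers lie at -0.87, and plasminogen activation lies at -0.01.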

How the data were processed

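Each age had 2 Agilent one-color arrays of total RNA from septal nasal mucosa. Per the file headers, the authors extracted spots with Feature Extraction 11.0.1.1 and deposited, for each array, the median intensity of every spot, its background intensity and quality flags, without normalization between arrays. The series table equalled the processed intensity at all 62976 spots of each array (relative tolerance 1e-06).

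Here normexp with an offset of 0 corrected the median intensities for background (limma 3.58.1, R 4.3.3). Control spots and outlier-flagged spots (88 to 118 per array) were left out, spots of a probe were averaged, and arrays were quantile normalized. Probes of a gene were averaged as log2 values. The study's methods give limma, these averages, quantile normalization and the thresholds; the normexp offset is not given in the sources used here. Accessions matched the RefSeq GRCm38.p6 table for 32994 of 56605 probes (58.3%). Genes missing on an array were left out, which gave 45604 tested by lmFit and eBayes on all 4 arrays without covariates. The number of arrays limits the precision. The fit was tested on simulated data.

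Genes and lists were chosen with earlier results of these data known. Values on every array are given for the TIMP genes, every called gene, and the 2 uncalled genes with the highest mean level in each other class, besides genes near the threshold and others named after their values were seen. From each list, up to 3 called genes were named. The alternatives were other background corrections, scalings, probe filters and averages, an intensity trend, the replicate number as a block, 1 slide alone, and each array left out. Promoter sequences are from RefSeq, GRCm38.p6. Protein sequences were not used here.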

Additional observations from a re-analysis of the deposited data

How the results depend on the processing

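The count of genes called lower, 8, became 13 with a normexp offset of 50, 13 without background correction, 14 with the processed intensity quantile normalized, 21 without dim probes (36 of the 50 genes tested), 14 with an intensity trend in eBayes, 0 at an FDR below 0.05 and 5 with the limits on level and fold change. The count called higher, 0, became 2 with an offset of 50, 1 without background correction, 1 with the processed intensity quantile normalized, 4 without dim probes and 1 with the trend. Calls over all genes rose as well under these settings. In the same order, those lower went from 1063 of 45604 to 2475, 2239, 2343, 3706 of 29495 and 3518. Those higher went from 754 to 2107, 1788, 2029, 3445 of 29495 and 3612. The share called higher without dim probes, 4 of 36, was near that of all genes. Because that filter could keep a probe through its brighter age alone, its counts and medians are no separate support. Leaving out each array in turn gave 0 lower and 0 higher. Mmp2, Mmp12, Mmp13 and Mmp14 were called under every other background correction, scaling, filter, averaging and trend tried. Mmp9 and Adamts17 lost the call with either 75th percentile scaling, Adamtsl4 with that scaling of the median intensity or with the most intense probe, and Adamts9 with the processed intensity scaled to that percentile.

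The MMP median, -0.22, was -0.43 without dim probes, and -0.45 to -0.13 with 1 array left out. The ADAMTS median, -0.16, was -0.099 with an offset of 50, -0.071 and -0.25 with the processed intensity scaled to the 75th percentile and quantile normalized, -0.28 without dim probes, -0.28 on the shared slide, and -0.23 to -0.12 with 1 array left out. The ADAMTS-like median, -0.06, was -0.27 with either processed intensity, -0.14 on the shared slide, and -0.28 to -0.045 with 1 array left out. The TIMP median, -0.24, was -0.23 with an offset of 50, -0.27 and -0.28 with the processed intensities and -0.27 with the most intense probe. The difference between protease and TIMP means, -0.006, turned to 0.013 and 0.033 with offsets of 16 and 50, 0.020 without background correction, 0.027 with the processed intensity scaled to the 75th percentile, 0.00022 with 75th percentile scaling, 0.014 with cyclic loess and 0.097 on the shared slide, was -0.16 without dim probes, and ranged from -0.089 to 0.076 with 1 array left out. With 1 array left out, Adamtsl5 ranged from -0.0074 (without aged array 2) to 0.15 and Timp3 from -0.12 to 0.026 (without young adult array 1), neither called. Causes were not tested.

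The number-1 arrays of the ages shared a slide and a scan, and nothing recorded is shared by the number-2 arrays. Deviations of same-numbered arrays correlated at -0.078, and with the replicate number as a block 0 of the 50 genes were called lower and 0 higher, as for all genes (smallest FDR 0.433), with 13 genes lower at P below 0.05 alone. The slide as a random block could not be fitted, because no correlation within the slide could be estimated, and was not run. With 2 pools per age and signals near background for 12 genes, small differences were not detectable.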
